A study of Arabidopsis thaliana with 8 samples.

Results

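The nuclear genes of the 2 photosystems and of their light-harvesting antennae were described in rosettes of Arabidopsis thaliana. They were 40 genes chosen by locus identifier, of 18333 genes listed in any of the deposited tables, and all 40 were listed in every table. By complex they were 4 LHCA genes for the antenna of photosystem I, 14 LHCB genes for the antenna of photosystem II, 12 PSA genes for photosystem I subunits and 10 PSB genes for photosystem II subunits. All plants were untreated, 28 days old and of the Col-0 ecotype, and each of 4 genotypes was sequenced in 2 libraries. WT was the wild type. The PBL19C3A line was a pbl19 mutant that carried PBL19C3A-GFP-HA driven by the promoter of PBL19, a receptor-like cytoplasmic kinase gene. The sid2 line carried the same construct in a pbl19 mutant that also was mutant in sid2, which encodes ICS1, the enzyme that makes the precursor of most salicylic acid. The eds1 line carried it in a pbl19 mutant with a mutation in eds1, a gene of a regulator of immune signalling. The labels gave constitutive immunity as the phenotype of the PBL19C3A and sid2 lines and that of WT for the eds1 line. They gave neither the insertion of the construct in each line nor the number of plants in a library, and the design text speaks of 1 biological replicate, so the p-values measure only the spread between these libraries, which may be technical.

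In the thylakoid membrane of the chloroplast, the antenna proteins bind chlorophyll, absorb light and pass the excitation energy to a photosystem core. Photosystem II uses that energy to take electrons from water at the oxygen-evolving complex, and photosystem I passes them on to ferredoxin. The reaction centre proteins of both cores are encoded in the chloroplast genome. All LHC proteins and the subunits described here are encoded in the nucleus, and most of their transcripts are among the most abundant of a green leaf.

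The libraries held 37373977 to 51202472 counts in genes. The transcript level of PBL19, native gene and transgene together, was 7.40 and 10.4 FPKM (fragments per kilobase of transcript, scaled to library size) in WT libraries 1 and 2. It was 2197 and 1637 FPKM in the line PBL19C3A, 626 and 956 in sid2 plants and only 65.1 and 37.9 in the eds1 line. The lines thus differed in the level of the transgene as well as in the second mutation, and these cannot be told apart. Markers of leaf mesophyll were measured in all libraries (3 of 3 genes), while 0 of 3 root markers and 0 of 3 flower markers were listed in any table.

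The 40 genes took 16.7% and 14.9% of all counts in WT libraries 1 and 2. Their share was 9.03% and 9.69% in the PBL19C3A libraries, 10.7% and 11.0% in those of the sid2 line and 14.0% and 15.1% in the eds1 line. In WT, 17 of the 20 genes with the highest mean FPKM were members, and 38 of the highest 100. LHCB1.3 had the highest FPKM of all genes listed in each of the 4 genotypes. The member with the lowest level was LHCB4.3, at rank 13204 in WT.

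The first comparison was between the PBL19C3A line and WT, which shows what the line with the constitutive immunity phenotype expresses differently in its photosystems. In this line 38 of the 40 genes fell, 0 rose and 2 did not pass the test (edgeR quasi-likelihood, adjusted p under 0.05), where 14.8% of all 18048 genes tested were called lower. All 4 LHCA genes fell, as did 13 of 14 LHCB genes, 12 of 12 PSA genes and 9 of 10 PSB genes. The median log2 difference was -0.75 for LHCA, -0.85 for LHCB, -0.66 for PSA and -0.71 for PSB genes, and 0.02 over all genes. In FPKM, 39 of the 40 genes were lower in both libraries of the line than in both WT libraries, where 30.4% of all genes were, and 1 was higher in both, where 40.2% were. In such bulk samples fewer cells of a type and less RNA per cell cannot be told apart. Without PBL19C3A library 1, 28 members were called lower, and the fewest calls otherwise were 32, without WT library 1.

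**Figure D1:**
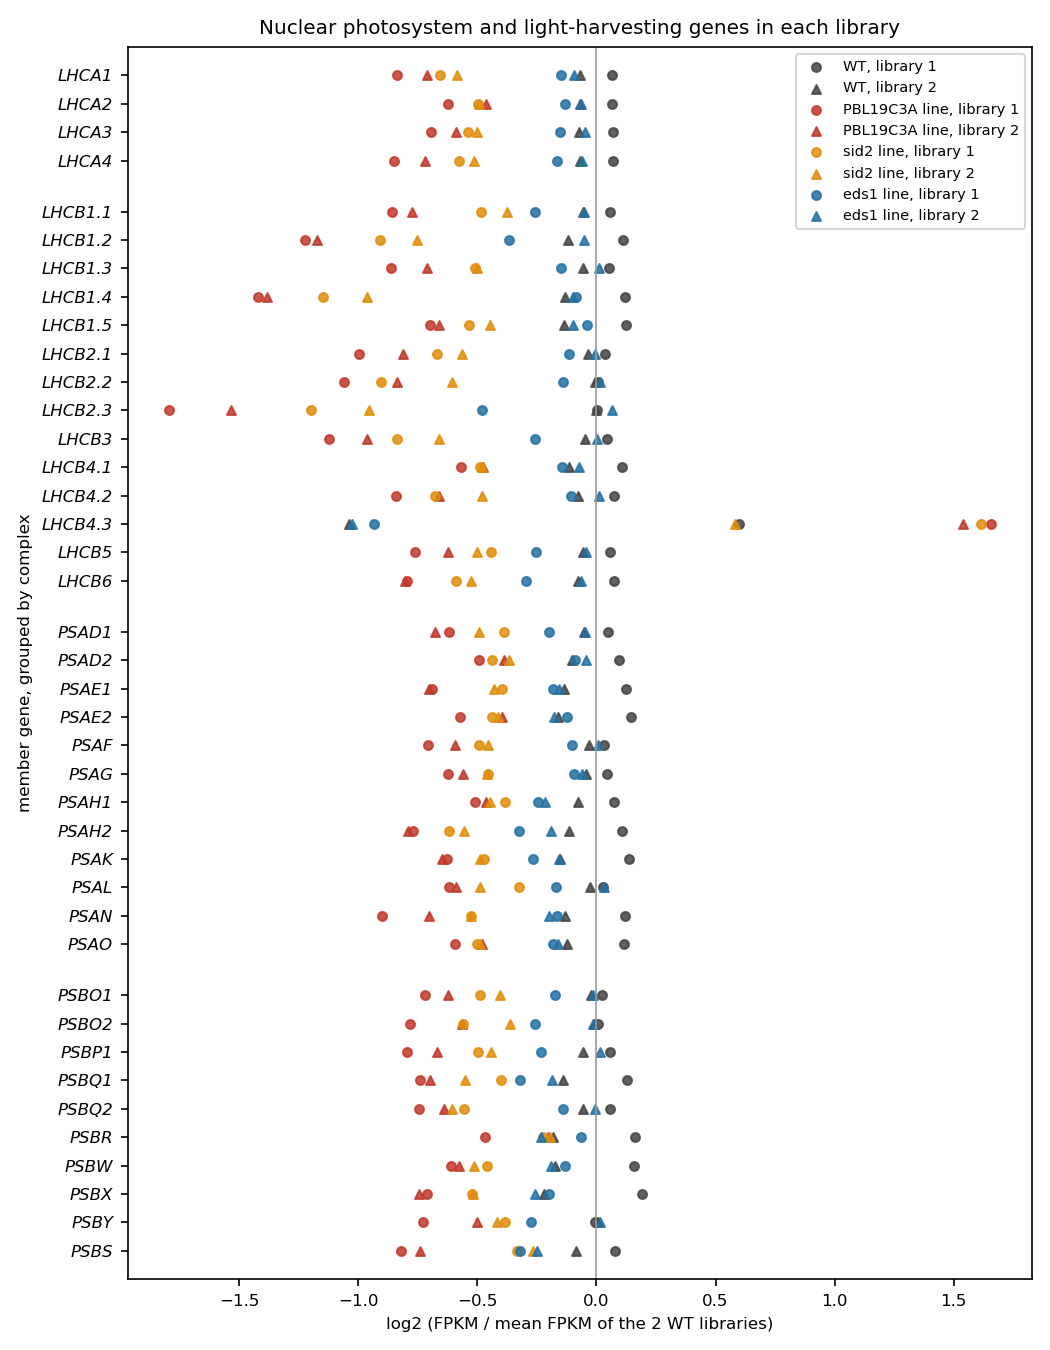
Level of each of the 40 genes in each of the 8 libraries, as log2 of its FPKM over the mean of the 2 WT libraries, with circles for library 1 and triangles for library 2. The PBL19C3A libraries lie lowest and the sid2 libraries mostly between them and WT, while the eds1 libraries lie near WT, and LHCB4.3 is the only gene above WT in both PBL19C3A libraries.

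The antenna of photosystem I is a belt of LHCA proteins on one side of its core. LHCA4 (AT3G47470), whose protein pairs with that of LHCA1 and holds red-shifted chlorophylls, was at 7166 and 6509 FPKM in WT, 3794 and 4150.3 in PBL19C3A, 4586 and 4791 in sid2 and 6103 and 6549 in eds1 plants. LHCA1 (AT3G54890) was at 5870.4 and 5359 FPKM in WT, 3146 and 3433 in PBL19C3A, 3559 and 3738 in sid2 and 5057 and 5257 in eds1 plants. Both genes had their lowest values in the PBL19C3A line, with no overlap with WT. LHCA4 fell by 0.83 ± 0.13 on the log2 scale (SE, edgeR adjusted p = 0.00278) and LHCA1 by 0.81 ± 0.12 (edgeR adjusted p = 0.00243). LHCA2 (AT3G61470) and LHCA3 (AT1G61520) form the other pair of the belt. LHCA3 was at 4983 and 4521 FPKM in WT, 2933 and 3161 in PBL19C3A, 3266 and 3354 in sid2 and 4275 and 4599 in eds1 plants. LHCA2 was at 3860 and 3512 FPKM in WT, 2392 and 2673 in PBL19C3A, 2611 and 2622 in sid2 and 3362 and 3523 in eds1 plants. Here too the PBL19C3A and WT libraries did not overlap. LHCA3 fell by 0.68 ± 0.12 (edgeR adjusted p = 0.00515) and LHCA2 by 0.58 ± 0.12 (edgeR adjusted p = 0.00959), a call that was lost without WT library 1 and without PBL19C3A library 1.

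The major antenna of photosystem II, LHCII, is a trimer of LHCB1, LHCB2 and LHCB3 proteins, and in Arabidopsis 5 genes encode LHCB1. On the TAIR10.1 assembly LHCB1.2, LHCB1.1 and LHCB1.3 stood side by side on chromosome 1, with 1153 and 1915 bases between them, and LHCB1.5 and LHCB1.4 on chromosome 2, with 1038 bases between them. Their coding sequences were nearly alike, with 95.7% to 96.4% identity among the 3 on chromosome 1, 91.4% between the pair on chromosome 2 and 86.8% between LHCB1.3 and LHCB1.4. The first 60 bases of the 5 coding sequences, read from the RefSeq annotation of TAIR10.1, are shown 5′ to 3′ because reads can tell the copies apart only at such differences. Capitals mark bases that differ from LHCB1.3.
LHCB1.1: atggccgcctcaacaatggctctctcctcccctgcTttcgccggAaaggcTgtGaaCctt
LHCB1.2: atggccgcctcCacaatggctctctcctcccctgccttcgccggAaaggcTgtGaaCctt
LHCB1.3: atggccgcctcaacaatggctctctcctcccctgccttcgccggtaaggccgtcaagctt
LHCB1.4: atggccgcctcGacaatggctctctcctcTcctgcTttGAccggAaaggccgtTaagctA
LHCB1.5: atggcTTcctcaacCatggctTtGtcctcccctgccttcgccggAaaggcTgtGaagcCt
In this stretch LHCB1.4 and LHCB1.5 differed from LHCB1.3 at 8 and 9 bases and the others at 5. The sources used here do not give how reads shared by such copies were counted, and the split between copies is therefore uncertain, most of all among the 3 genes on chromosome 1.

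LHCB1.3 (AT1G29930, chromosome 1, 10477885 to 10479114, plus strand) was at 20382 and 18874 FPKM in WT, 10786 and 11985 in PBL19C3A, 13769.8 and 13862 in sid2 and 17721 and 19748 in eds1 plants. LHCB1.5 (AT2G34420), the next highest, was at 10660.2 and 8878 FPKM in WT, 6017 and 6185 in PBL19C3A, 6748 and 7173 in sid2 and 9493 and 9126 in eds1 plants. The PBL19C3A libraries were the lowest for both genes. LHCB1.3 fell by 0.83 ± 0.14 (edgeR adjusted p = 0.00372) and LHCB1.5 by 0.72 ± 0.13 (edgeR adjusted p = 0.00565). LHCB1.4 (AT2G34430, chromosome 2, 14524607 to 14525918, plus strand) was at 5448 and 4576 FPKM in WT, 1870.3 and 1922 in PBL19C3A, 2263 and 2571 in sid2 and 4723 and 4684 in eds1 plants. Its PBL19C3A and sid2 values lay well below every WT and eds1 value. It fell by 1.44 ± 0.14 (edgeR adjusted p = 0.000455), the smallest adjusted p of the 40 genes. LHCB1.2 (AT1G29910) was at 5473 and 4667 FPKM in WT, 2170.0 and 2248 in PBL19C3A, 2697 and 3008 in sid2 and 3934 and 4886 in eds1 plants. It fell by 1.24 ± 0.16 (edgeR adjusted p = 0.0014) and LHCB1.1 (AT1G29920) by 0.86 ± 0.13 (edgeR adjusted p = 0.00289).

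LHCB2 is the LHCII protein whose phosphorylation moves the antenna between the photosystems. LHCB2.3 (AT3G27690, chromosome 3, 10255906 to 10257489, plus strand) was at 1434 and 1429 FPKM in WT, 412 and 494 in PBL19C3A, 623 and 738 in sid2 and 1025 and 1496 in eds1 plants. Every PBL19C3A and sid2 library was below every WT library, while eds1 library 2 was above both and eds1 library 1 was below. Its fall of 1.70 ± 0.21 was the largest of the 40 genes (edgeR adjusted p = 0.00118), and its rank among all genes went from 49 in WT to 139 in the PBL19C3A line. The gene shares 595 bases with AT3G27700 on the opposite strand, and the sources used here do not say whether counting used strand. Reads within the shared stretch therefore cannot be assigned to 1 gene of the pair. In all, 15 of the 40 genes share a stretch with a gene on the opposite strand. LHCB1.5 shares 1045 bases with the long non-coding RNA gene AT2G08665 and PSAH1 788 bases with AT3G16130, while other stretches are short, such as 39 bases in PSAN and 44 in LHCB4.2. LHCB2.1 (AT2G05100) was at 4906 and 4664 FPKM in WT, 2399.6 and 2723 in PBL19C3A, 3004 and 3239 in sid2 and 4422 and 4770.2 in eds1 plants. LHCB2.2 (AT2G05070) was at 4246 and 4204 FPKM in WT, 2026 and 2366 in PBL19C3A, 2254 and 2776 in sid2 and 3833 and 4270.3 in eds1 plants. These neighbours on chromosome 2 were 96.6% identical in coding sequence, with a shared run of 152 bases. They fell by 0.94 ± 0.13 (edgeR adjusted p = 0.00173) and 0.98 ± 0.16 (edgeR adjusted p = 0.00296). LHCB3 (AT5G54270) was at 5849.6 and 5490.4 FPKM in WT, 2603 and 2907 in PBL19C3A, 3172 and 3587 in sid2 and 4743 and 5679 in eds1 plants. Its values in the PBL19C3A and sid2 lines did not overlap those of WT, and it fell by 1.08 ± 0.15 in the PBL19C3A line (edgeR adjusted p = 0.00184).

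The minor antenna proteins CP29 (LHCB4), CP26 (LHCB5) and CP24 (LHCB6) link the LHCII trimers to the core. LHCB4.1 (AT5G01530) was at 3583 and 3064 FPKM in WT, 2241 and 2387 in PBL19C3A, 2371 and 2384 in sid2 and 3009 and 3158 in eds1 plants. It had the smallest fall among the LHCB genes, by 0.56 ± 0.13 (edgeR adjusted p = 0.0123), and lost the call without WT library 1 and without PBL19C3A library 1. LHCB4.2 (AT3G08940), LHCB5 (AT4G10340) and LHCB6 (AT1G15820) fell by 0.79 ± 0.14, 0.73 ± 0.14 and 0.84 ± 0.13. The exception was LHCB4.3 (AT2G40100), the CP29 gene that had 65.7% coding identity to LHCB4.1. It was at 5.98 and 1.92 FPKM in WT (319 and 105 counts), 12.5 and 11.5 in PBL19C3A, 12.1 and 5.91 in sid2 and 2.07 and 1.94 in eds1 plants. Both PBL19C3A libraries were above both WT libraries, which themselves differed widely. Its log2 difference of 1.55 ± 0.51 did not pass the test (edgeR adjusted p = 0.0501), while it was called higher by DESeq2, by limma on log2(FPKM + 1), with RLE size factors, with library totals as scaling and with a replicate block. It was not called without the low-count filter, with 2 groups only or with scaling on other genes than the members and related lists. The difference was 2.54, and called, without WT library 1, and 0.95, not called, without WT library 2.

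**Figure D2:**
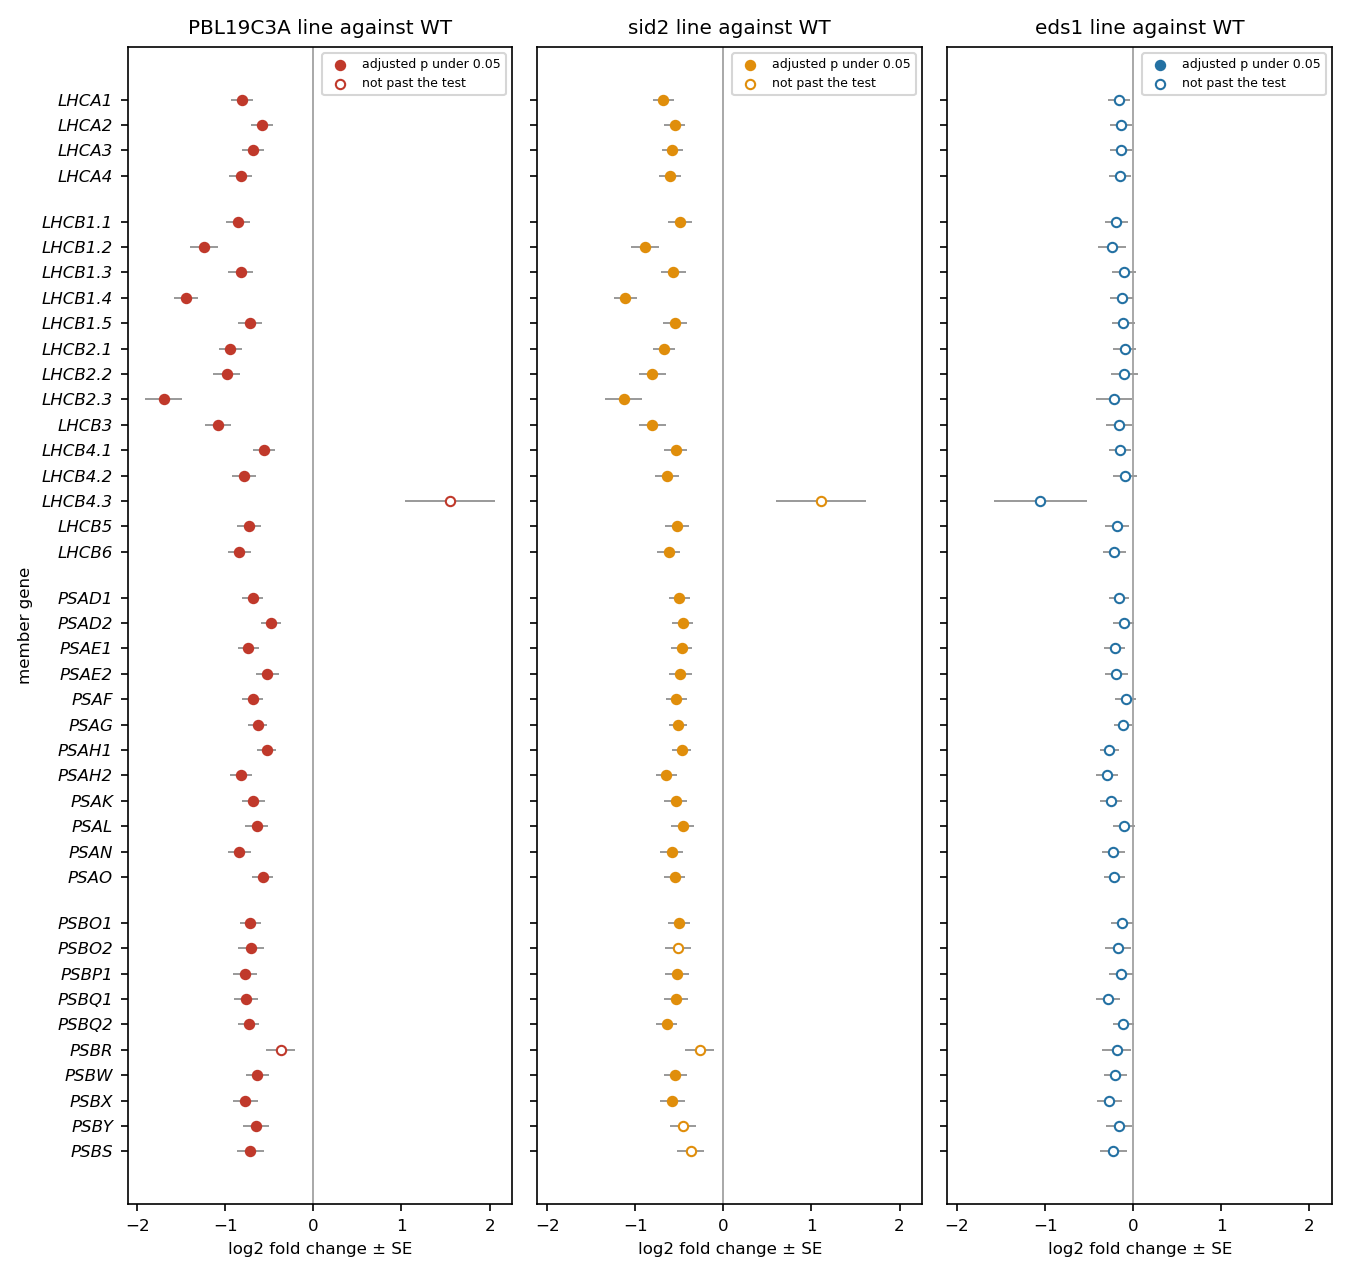
Log2 fold change of each gene with its SE in the PBL19C3A, sid2 and eds1 lines against the same 2 WT libraries, with filled points for an edgeR adjusted p under 0.05. In the first panel 38 of 40 points are filled and in the second 35, in both cases all on the lower side, while in the third 0 are filled and all 40 lie below 0.

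Among photosystem I subunits, PSAF (AT1G31330), which docks plastocyanin, the electron donor, was at 4022 and 3852 FPKM in WT, 2413 and 2609 in PBL19C3A, 2795 and 2873 in sid2 and 3669 and 3954 in eds1 plants. PSAL (AT4G12800), next to which mobile LHCII docks, was at 3242 and 3127 FPKM in WT, 2073 and 2119 in PBL19C3A, 2545 and 2272 in sid2 and 2829 and 3251 in eds1 plants. Both were lowest in the PBL19C3A line, without overlap with WT. They fell by 0.69 ± 0.12 (edgeR adjusted p = 0.00397) and 0.65 ± 0.13 (edgeR adjusted p = 0.00756). The largest falls of the class were those of PSAN and PSAH2. PSAN (AT5G64040), a subunit on the lumen side, was at 2403 and 2018 FPKM in WT, 1185 and 1357 in PBL19C3A, 1534 and 1535 in sid2 and 1969 and 1925 in eds1 plants. PSAH2 (AT1G52230), 1 of 2 genes of the PSI-H subunit, was at 1477 and 1265 FPKM in WT, 805 and 793 in PBL19C3A, 892 and 933 in sid2 and 1095 and 1202 in eds1 plants. For both genes every transgenic library was below the WT library of lower level. PSAN fell by 0.84 ± 0.13 (edgeR adjusted p = 0.00296) and PSAH2 by 0.82 ± 0.12 (edgeR adjusted p = 0.00236). The smallest falls were those of 2 stromal subunits that help dock ferredoxin. PSAD2 (AT1G03130) was at 1475 and 1287 FPKM in WT, 982 and 1054 in PBL19C3A, 1018 and 1072 in sid2 and 1297 and 1338 in eds1 plants. PSAE2 (AT2G20260) was at 682 and 552 FPKM in WT, 414 and 469 in PBL19C3A, 454 and 463 in sid2 and 565 and 545 in eds1 plants. For both genes the PBL19C3A libraries lay below the WT libraries. They fell by 0.48 ± 0.12 (edgeR adjusted p = 0.0175) and 0.52 ± 0.13 (edgeR adjusted p = 0.0204), and both lost the call without WT library 1 and without PBL19C3A library 1. The other 6 genes, PSAD1, PSAE1, PSAG, PSAH1, PSAK and PSAO, fell by 0.53 to 0.74. Of these PSAO lost the call without WT library 1 and without PBL19C3A library 1, and PSAH1 without PBL19C3A library 1.

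Among photosystem II subunits, PSBO1 (AT5G66570) encodes the main manganese-stabilizing protein of the oxygen-evolving complex. It was at 4218 and 4085 FPKM in WT, 2517 and 2693 in PBL19C3A, 2956 and 3134 in sid2 and 3679 and 4116 in eds1 plants. PSBP1 (AT1G06680) and PSBQ2 (AT4G05180) encode further extrinsic proteins of this complex. PSBP1 was at 3293 and 3044 FPKM in WT, 1828 and 1990.2 in PBL19C3A, 2245 and 2330.1 in sid2 and 2697 and 3205 in eds1 plants. PSBQ2 was at 1737 and 1604 FPKM in WT, 997 and 1073 in PBL19C3A, 1136 and 1097 in sid2 and 1514 and 1662 in eds1 plants. All 3 were lowest in the PBL19C3A line and did not overlap WT there. They fell by 0.71 ± 0.12 (edgeR adjusted p = 0.0044), 0.77 ± 0.14 (edgeR adjusted p = 0.0049) and 0.73 ± 0.12 (edgeR adjusted p = 0.00327). PSBO2 and PSBQ1, their sister genes, fell by 0.71 ± 0.15 and 0.76 ± 0.14. Of the small membrane subunits, PSBX (AT2G06520) was at 2709.7 and 2042 FPKM in WT, 1449.8 and 1419 in PBL19C3A, 1655 and 1659 in sid2 and 2067 and 1984 in eds1 plants, and fell by 0.77 ± 0.15 (edgeR adjusted p = 0.00617). PSBW (AT2G30570) was at 2395 and 1904 FPKM in WT, 1406 and 1442 in PBL19C3A, 1563 and 1505 in sid2 and 1961 and 1882 in eds1 plants, and fell by 0.64 ± 0.13 (edgeR adjusted p = 0.00943), as PSBY did by 0.65 ± 0.15. PSBS, whose protein triggers the release of excess excitation as heat, fell by 0.71 ± 0.15. Without PBL19C3A library 1 the calls of PSBO2, PSBW, PSBY and PSBS were lost, without WT library 1 those of PSBY and PSBS, and without WT library 2 that of PSBY. The gene that stood apart was PSBR (AT1G79040), a subunit that helps PSBP bind. It was at 6620.4 and 5207 FPKM in WT, 4270.2 and 5141 in PBL19C3A, 5056 and 5166 in sid2 and 5655 and 5031 in eds1 plants. PBL19C3A library 2 almost reached WT library 2, and the log2 difference of -0.37 ± 0.16 did not pass the test (edgeR adjusted p = 0.112).

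Around these complexes, other photosynthesis genes in the PBL19C3A line are read against the same 14.8% of all genes called lower. Of 14 measured further antenna and photosystem genes, 13 fell, with a median of -0.68, among them LHCA6 by 1.26 ± 0.16, whose protein links photosystem I to the NDH complex, the assembly factor gene PSB28 by 1.05 ± 0.15 and PSB33 by 0.88 ± 0.11. Of 11 genes of electron transfer and ATP synthase, 7 fell, with a median of -0.52. The ATP synthase gene ATPD fell by 0.99 ± 0.17, PETE2, the main plastocyanin gene, by 0.93 ± 0.13 and FD2, the main leaf ferredoxin gene, by 0.87 ± 0.13. All 6 genes of Rubisco and carbon entry fell, with a median of -0.67, led by the small subunit genes RBCS2B, by 0.87 ± 0.23, and RBCS1B, by 0.86 ± 0.17, and by the carbonic anhydrase gene CA1, by 0.76 ± 0.14. Of 11 genes of LHC insertion, state transitions, thylakoid shape and the xanthophyll cycle (VDE and ZEP), 6 fell. Among them were CURT1A, by 0.78 ± 0.14, CPSRP43 (AT2G47450), by 0.78 ± 0.16, and LTD, by 0.70 ± 0.13. The other 5 did not pass the test. Among these were the state transition genes STN7, with a difference of -0.09 ± 0.09, and TAP38, with 0.25 ± 0.10, both named after their values were seen.

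Of 15 regulators encoded in the nucleus, 6 fell, 1 rose and 8 did not pass the test, where 21.3% of all genes were called higher. GLK2, a transcription factor gene known to activate LHC genes, was at 177 and 150.1 FPKM in WT, 64.2 and 86.3 in PBL19C3A, 109 and 105 in sid2 and 152 and 145 in eds1 plants, and it fell by 1.16 ± 0.16 in the PBL19C3A line (edgeR adjusted p = 0.00194). GUN4, which promotes chlorophyll synthesis, fell by 1.19 ± 0.25, and GNC, a GATA factor gene of chloroplast development, by 1.04 ± 0.16. The remaining falls were those of SIG1, by 0.90 ± 0.16, PIF4, by 0.82 ± 0.19, and SIG6, by 0.59 ± 0.15. The only gene that rose was GUN1, of plastid-to-nucleus signalling, at 55.0 and 59.5 FPKM in WT and 89.7 and 85.7 in the PBL19C3A line, by 0.57 ± 0.14 (edgeR adjusted p = 0.0158). GLK1, at 64.4 and 50.9 against 40.4 and 46.9 FPKM, and HY5, at 6.49 and 6.39 against 7.34 and 4.21, did not pass the test. GUN1, GLK1, HY5, SIG1, PIF4 and SIG6 were named after their values were seen.

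Markers of other leaf cell types moved with these genes. The 3 mesophyll markers, RBCS1A, RCA and CA1, are carbon fixation genes and were already counted above among the 6 genes of Rubisco and carbon entry. They are thus no separate measure of the amount of mesophyll. Their summed FPKM was 17965 to 19043 in WT and 12758 to 14099 in the PBL19C3A line, and 3 of 3 were called lower. For the 3 guard cell markers, all called lower, the sums were 30.7 to 32.3 and 12.6 to 16.3 FPKM. For the 3 epidermis markers, of which 2 were called lower, they were 254 to 283 and 158 to 207 FPKM, and for the 2 phloem markers, of which 1 was called lower, 121 to 123 and 82.9 to 90.3 FPKM. No marker of these 4 cell types was called higher, and the part that cell composition has in the fall of the photosystem genes was not tested.

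The sid2 line was compared next, first with WT and then with the PBL19C3A line. As given at the start, its PBL19 level was also lower than that of the PBL19C3A line, and the part of that level was not tested. In the sid2 line 35 of the 40 genes fell against WT, 0 rose and 5 did not pass the test, where 4.05% of all 17991 genes tested were called lower. The medians were -0.59 for LHCA, -0.63 for LHCB, -0.51 for PSA and -0.52 for PSB genes. All 4 LHCA and all 12 PSA genes fell, as did 6 of 10 PSB genes. The other PSB genes were PSBR, PSBO2 (edgeR adjusted p = 0.0547), PSBY (edgeR adjusted p = 0.0727) and PSBS (edgeR adjusted p = 0.147), and the fifth gene without a call was LHCB4.3. With a replicate block, and in DESeq2, PSBO2 and PSBY were also called lower, which made 8 of 10 PSB genes. By limma, 8 calls were lost, those of LHCB1.1, LHCB1.3, LHCB1.5, LHCB5, PSAE1, PSAE2, PSAL and PSBX. With 2 groups only, 8 calls were lost, those of PSAD2, PSAE1, PSAE2, PSAH1, PSAK, PSBQ1, PSBW and PSBX, while PSBO2 and PSBY were called. PSAL lost its call with RLE size factors and PSAE2 with library totals as scaling. PSBS stood at 724 and 758 FPKM in the sid2 line, against 963 and 859.9 in WT, 516 and 546 in the PBL19C3A line and 730.4 and 766 in the eds1 line. In FPKM 39 of the 40 genes were lower in both sid2 libraries than in both WT libraries, where 23.6% of all genes were. As in the PBL19C3A line, LHCB2.3 and LHCB1.4 had the largest falls, by 1.13 ± 0.21 (edgeR adjusted p = 0.0117) and 1.11 ± 0.13 (edgeR adjusted p = 0.00262). The count of 35 rested on having 2 libraries in each group. It was much lower whenever 1 library of these groups was left out, while the median log2 difference stayed below 0 in every class. The medians then ran from -0.65 to -0.52 for LHCA, -0.69 to -0.55 for LHCB, -0.57 to -0.43 for PSA and -0.55 to -0.42 for PSB genes. The difference of LHCB4.3 stayed above 0, from 0.49 to 2.12. In the related lists 5 of 15 further antenna and photosystem genes, 1 of 11 genes of electron transfer and ATP synthase, 5 of 15 regulators, 2 of 11 genes of insertion and state transition and 1 of 6 genes of Rubisco and carbon entry were called lower than WT. The summed level of the mesophyll markers was 16168 and 16181 FPKM and that of the guard cell markers 22.4 and 21.3 FPKM, all below WT, and their part in the result was not tested.

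Against the PBL19C3A line, 0 of the 40 genes were called in the sid2 line by edgeR, by DESeq2 or by limma, 3 had an unadjusted p under 0.05, and 2.11% of all 17812 genes were called. The 3 were LHCB1.1, LHCB1.4 and LHCB2.3, with differences of 0.37 ± 0.13, 0.33 ± 0.13 and 0.57 ± 0.21. The difference was below 0 in 1 of 40 genes (7 without PBL19C3A library 1) and above 0 in the others, with medians of 0.12 for LHCA, 0.24 for LHCB, 0.15 for PSA and 0.19 for PSB genes. Without PBL19C3A library 1 they were 0.045, 0.17, 0.11 and 0.11, and without PBL19C3A library 2 they were 0.20, 0.33, 0.17 and 0.27. In FPKM 31 of the 40 genes were higher in both sid2 libraries than in both PBL19C3A libraries, where 24.6% of all genes were. For 31 genes both sid2 libraries also lay between the PBL19C3A and the WT libraries, which held for 9.76% of the 17327 genes in all tables. They were 3 of 4 LHCA, 10 of 14 LHCB, 9 of 12 PSA and 9 of 10 PSB genes. The comparisons with WT share the 2 WT libraries, and those with the PBL19C3A line share its 2 libraries.

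The eds1 line stood near WT. Of the 40 genes 0 were called against WT by edgeR, by DESeq2 or by limma, 2 had an unadjusted p under 0.05, PSAH1 and PSAH2, and 0.211% of all 17534 genes were called. PSAH1 had a difference of -0.27 ± 0.11 and PSAH2 one of -0.30 ± 0.12. The difference was below 0 in 40 of 40 genes (35 without eds1 library 1), with medians of -0.15 for LHCA, -0.15 for LHCB, -0.20 for PSA and -0.18 for PSB genes, against 0.01 over all genes. With 1 library left out, the medians ran from -0.21 to -0.072 for LHCA, -0.26 to -0.057 for LHCB, -0.32 to -0.081 for PSA and -0.28 to -0.051 for PSB genes. The values nearest to 0 came without WT library 1 for LHCA and PSA and without eds1 library 1 for LHCB and PSB genes, and the lowest without WT library 2 for PSA and without eds1 library 2 for the others. In FPKM 11 of the 40 genes were lower in both eds1 libraries than in both WT libraries, against 11.0% of all genes. These were 1 LHCA, 0 LHCB, 7 PSA and 3 PSB genes. In the 5 related lists 0 genes were called. As given at the start, the eds1 line also had a far lower PBL19 level than the other lines, and the part of that level was not tested.

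Against the PBL19C3A line, 33 of the 40 genes were higher in the eds1 line, where 12.0% of all 17358 genes tested were, and 1 was lower, where 16.2% were. All 4 LHCA genes, 13 of 14 LHCB, 8 of 12 PSA and 8 of 10 PSB genes were higher. LHCB2.3 had a difference of 1.48 ± 0.21 (edgeR adjusted p = 0.00269) and LHCB1.4 one of 1.31 ± 0.14 (edgeR adjusted p = 0.000777). The gene that was lower was LHCB4.3, by a log2 difference of -2.60 ± 0.54 (edgeR adjusted p = 0.0116), a call lost without PBL19C3A library 1, without eds1 library 1 and without eds1 library 2. In FPKM 38 of the 40 genes were higher in both eds1 libraries than in both PBL19C3A libraries, where 33.1% of all genes were. PSAD2, PSAE2, PSAH1, PSAO, PSBR and PSBS did not pass the test. Without PBL19C3A library 1 the count of 34 calls was 6, and without eds1 library 2 it was 15, and with the 4 libraries of these lines alone in the fit it was 14. GLK2 was higher as well, with a difference of 0.98 ± 0.16 (edgeR adjusted p = 0.00502), as were 9 of 14 further antenna and photosystem genes, 4 of 11 of electron transfer and ATP synthase, 5 of 15 regulators, 5 of 11 of insertion and state transition and 2 of 6 of Rubisco and carbon entry. In these lists 1 gene was called lower, the regulator GUN1, with -0.67 ± 0.14 (edgeR adjusted p = 0.0113).

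Between the lines with a second mutation, 8 genes were higher in the eds1 line than in the sid2 line, where 2.39% of all 17397 genes tested were, and 31 did not pass the test. They were LHCA1, LHCB1.2, LHCB1.4, LHCB2.1, LHCB2.2, LHCB2.3, LHCB3 and PSBQ2, so 7 of the 8 were antenna genes. The differences ran from 0.52 ± 0.12 for LHCA1 (edgeR adjusted p = 0.0407) to 0.98 ± 0.13 for LHCB1.4 (edgeR adjusted p = 0.00577). LHCB4.3 was lower, with -2.16 ± 0.53 (edgeR adjusted p = 0.0469), where 7.02% of all genes were, but was not called by limma, with 2 groups only, or without sid2 library 1, eds1 library 1 or eds1 library 2. In FPKM, 37 of the 40 genes were higher in both eds1 libraries than in both sid2 libraries, where 25.1% of all genes were. The count of 9 calls was 0 without sid2 library 1, 2 without sid2 library 2, 1 without eds1 library 2 and 1 with the 4 libraries of these lines alone, but 20 in DESeq2 and 15 with library totals as the scaling.

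The classes were then set side by side by their summed FPKM, as a description with no test. In the PBL19C3A line the LHCB genes stood at 55.2% of their WT level, the LHCA genes at 61.5%, the PSA genes at 64.8% and the PSB genes at 66.4%. In the sid2 line the same classes stood at 66.1%, 68.3%, 72.8% and 75.7%, and in the eds1 line at 93.4%, 92.7%, 91.4% and 90.5%. The SDs of these percentages over 2 libraries were 1.86 to 4.63 in PBL19C3A, 0.844 to 2.78 in sid2 and 2.62 to 6.50 in eds1 plants, where those of the LHCB genes were 2.78 in sid2 and 6.50 in eds1 plants. The LHCB genes had the lowest value in the PBL19C3A line. With the sid2 mutation they differed from the LHCA genes by less than the SD of the LHCB genes, and in the eds1 line from every other class by less than it. PSBR weighed on the PSB sums, with a WT mean of 5914 FPKM within a class mean of 24537. It kept 79.6% of its WT level in PBL19C3A and 86.4% in sid2 plants, the highest values among the PSB genes. By median log2 difference the PSB genes fell slightly more than the PSA genes, by -0.71 against -0.66 in PBL19C3A. In sid2 plants these medians were -0.52 and -0.51, so the order of these classes depended on the measure. The ratio of summed LHCB to PSB levels was 3.04 and 3.17 in WT libraries 1 and 2, 2.60 and 2.56 in PBL19C3A, 2.65 and 2.77 in sid2 and 3.11 and 3.29 in eds1 plants. Both PBL19C3A and both sid2 libraries lay below all WT and eds1 libraries. The ratio of LHCA to PSA was 0.816 and 0.831 in WT, 0.761 and 0.799 in PBL19C3A, 0.753 and 0.792 in sid2 and 0.832 and 0.836 in eds1 plants. Here too both PBL19C3A and both sid2 libraries lay below all WT and eds1 libraries. The ratio of LHCB to LHCA was 3.65 and 3.63 in WT, 3.29 and 3.26 in PBL19C3A, 3.48 and 3.57 in sid2 and 3.59 and 3.74 in eds1 plants. For the cores, the ratio of PSB to PSA ranged from 0.950 to 1.02 over the 8 libraries, and the 2 WT values of 0.980 and 0.952 lay within the range of the other libraries.

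**Figure D3:**
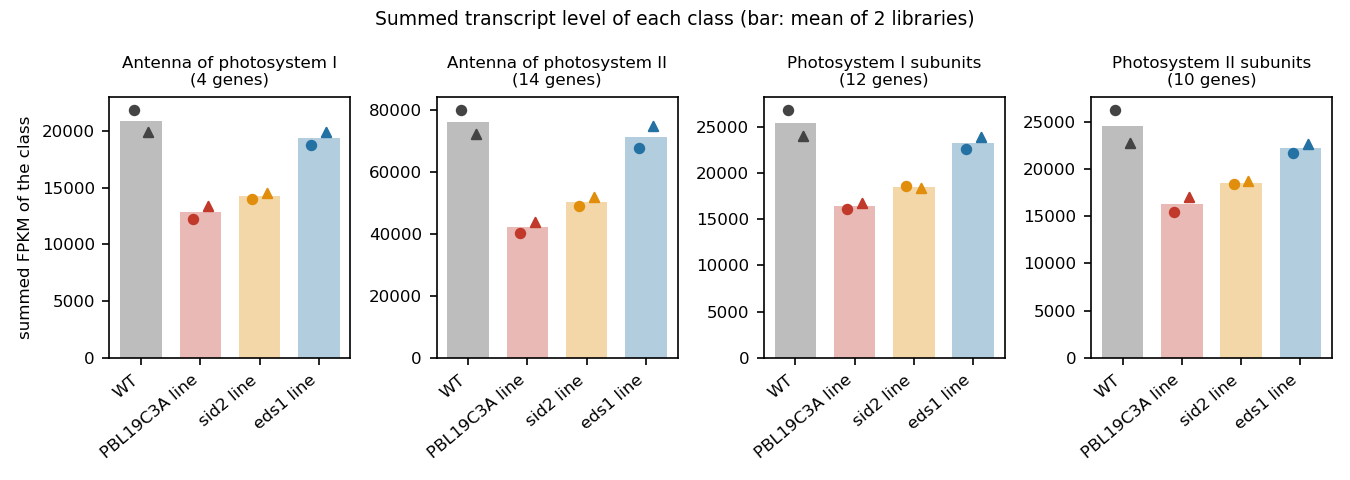
Summed FPKM of the 4 LHCA, 14 LHCB, 12 PSA and 10 PSB genes in each library (circles library 1, triangles library 2), with bars for the mean of the 2 libraries of a genotype. In all 4 panels the PBL19C3A bar is the lowest, the sid2 bar the next and the eds1 bar close to WT, and the drop is deepest in the LHCB panel, to 55.2% of WT.

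Within some families the measured FPKM of the copies did not move alike. The doubts given above, on reads shared by like copies or with genes on the opposite strand, hold for these shares too. LHCB2.3 made up 13.5% and 13.9% of the summed LHCB2 level in WT, 8.52% and 8.85% in PBL19C3A, 10.6% and 10.9% in sid2 and 11.0% and 14.2% in eds1 plants. LHCB1.4 made up 11.5% and 10.9% of LHCB1 in WT, 7.86% and 7.55% in PBL19C3A, 7.73% and 8.37% in sid2 and 11.7% and 10.7% in eds1 plants. For both genes the PBL19C3A and sid2 shares lay below every WT share. The share of LHCB1.3 was 42.9% and 44.8% in WT and 45.4% and 47.1% in the PBL19C3A line, and that of LHCB1.5 was 22.4% and 21.1% and then 25.3% and 24.3%. PSAH2 held 55.4% and 54.1% of the PSAH level in WT, 50.3% and 49.2% in PBL19C3A, 50.7% and 52.9% in sid2 and 53.4% and 55.2% in eds1 plants. The share of PSBO2 in PSBO, in contrast, was 24.6% and 25.0% in WT and 24.0% and 25.6% in the PBL19C3A line, which overlap. LHCB4.3 held at most 0.289% of LHCB4, in PBL19C3A library 1.

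**Figure D4:**
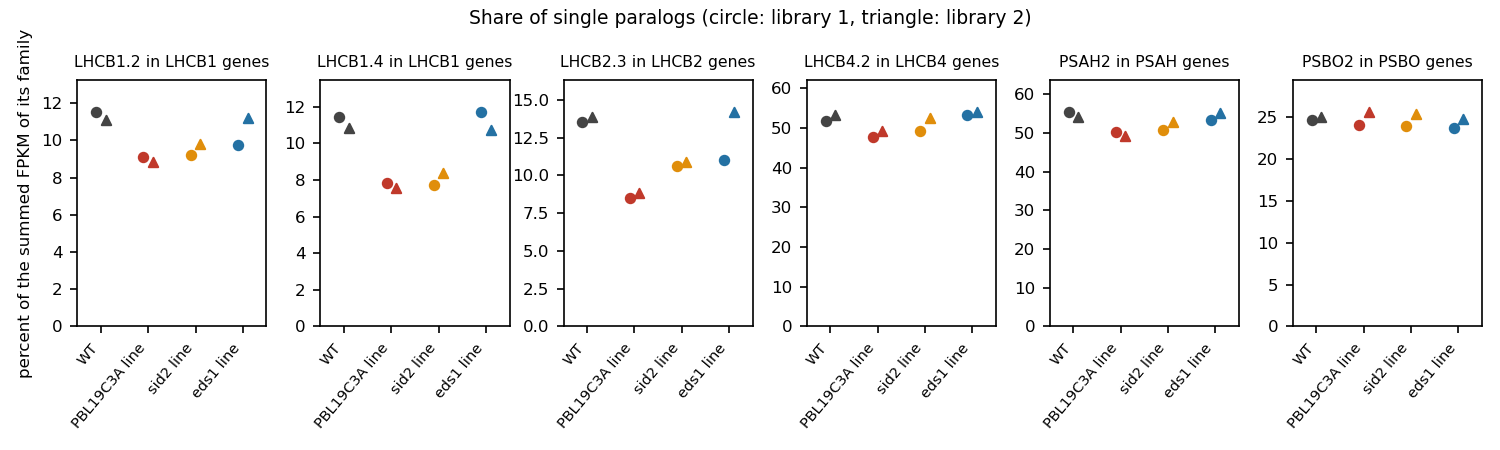
Share of single copies in the summed FPKM of their gene family in each library (circles library 1, triangles library 2), with the vertical axes starting at 0. The shares of LHCB1.2, LHCB1.4, LHCB2.3, LHCB4.2 and PSAH2 in both PBL19C3A libraries lie below those of both WT libraries, while that of PSBO2 overlaps WT. The copies shown are a selection. Of those not shown, PSAD1 and PSAE1 also had lower shares in both PBL19C3A libraries than in both WT libraries, and PSBQ1 overlapped WT.

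The 250 bases before the annotated start of each gene were searched on both strands for the letters of 5 elements. CCAATC, an element reported for GLK factors that includes the letters of the CCAAT box, was found before 3 of 4 LHCA and 7 of 14 LHCB genes, 0 of 12 PSA and 1 of 10 PSB genes. It was thus found before 10 of 18 antenna genes and 1 of 22 subunit genes, and in 10.2% of 27437 windows of the same length. Antenna genes with and without it had median log2 differences of -0.82 and -0.85 in the PBL19C3A line. CACGTG, the G-box read by bZIP and bHLH factors, stood before 8 of the 40 genes and in 6.49% of all windows, and GATAAG, the I-box, before 9 and in 12.3%. The W-box forms TTGACC and TTGACT, read by WRKY factors, each stood before 4 of the 40 genes, and in 12.2% and 19.1% of all windows. The window before LHCA4 (chr3:17495034-17495283 of TAIR10.1, minus strand), those before LHCB2.3 (chr3:10255656-10255905, plus strand) and LHCB1.4 (chr2:14524357-14524606, plus strand), which had the 2 largest falls, and that before LHCB4.3 (chr2:16745378-16745627, plus strand), which did not fall, are shown 5′ to 3′ on the strand of the gene. None of the 4 windows overlaps another annotated protein-coding gene, while genes of other types were not checked. Capitals mark each match to 1 of the 5 elements on either strand.
LHCA4: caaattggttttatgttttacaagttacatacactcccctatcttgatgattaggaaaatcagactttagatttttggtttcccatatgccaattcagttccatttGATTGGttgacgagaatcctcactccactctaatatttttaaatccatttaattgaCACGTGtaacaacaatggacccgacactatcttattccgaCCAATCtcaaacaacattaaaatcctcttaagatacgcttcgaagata
LHCB2.3: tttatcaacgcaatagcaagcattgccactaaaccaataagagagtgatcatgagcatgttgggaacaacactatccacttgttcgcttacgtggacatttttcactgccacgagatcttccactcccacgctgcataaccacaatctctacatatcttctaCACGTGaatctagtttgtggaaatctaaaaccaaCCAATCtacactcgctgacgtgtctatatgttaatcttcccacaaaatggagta
LHCB1.4: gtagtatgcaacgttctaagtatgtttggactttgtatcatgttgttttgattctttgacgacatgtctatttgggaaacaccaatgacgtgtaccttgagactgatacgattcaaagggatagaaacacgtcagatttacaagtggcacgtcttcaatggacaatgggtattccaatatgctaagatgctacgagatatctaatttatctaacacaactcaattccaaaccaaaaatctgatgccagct
LHCB4.3: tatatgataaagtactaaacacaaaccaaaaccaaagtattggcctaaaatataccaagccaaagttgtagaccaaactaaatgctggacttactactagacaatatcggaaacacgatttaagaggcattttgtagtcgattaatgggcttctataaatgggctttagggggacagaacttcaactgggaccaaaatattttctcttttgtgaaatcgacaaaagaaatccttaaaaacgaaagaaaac
LHCA4 held CCAATC on both strands and a G-box, LHCB2.3 held 1 of each, and LHCB1.4 and LHCB4.3 held none of the 5 elements in this window. The genes with the largest falls thus did not share these letters, and a match is a description of the sequence only.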

How the data were processed

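Total RNA of 8 rosette libraries was sequenced with standard Illumina preparation, per the labels' protocols. HISAT2 2.0.4, an aligner, and the build TAIR10 are named, per the submitters' processing notes, while the counting tool and the use of strand are not given in the sources used here. The deposited tables, 1 per transgenic line against WT, hold whole-number counts per gene and, per the file headers, FPKM values by the authors, which scale counts by gene length and library size. The tables of the sid2 and eds1 lines are named as comparisons with the PBL19C3A line, but their columns are headed as WT and the mutant line, and the columns were followed. The other 4 tables hold FPKM alone, 1 per genotype. Values listed in more than 1 table were the same in 284202 of 284202 comparisons. Of 18333 genes, 17327 were in all 3 tables, and a gene not listed in a table was fitted with the libraries that list it.

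For the main test, edgeR 4.0.16 (R 4.3.3; filterByExpr, TMM scaling, quasi-likelihood test) was run on the counts of the 8 libraries together, with no term but genotype, and p-values were adjusted by Benjamini-Hochberg over all genes of a comparison at 0.05. The biological coefficient of variation was 18.1%. The SE of a log2 fold change is its size over the square root of F. FPKM values give the levels, sums and ratios. Alternatives were DESeq2 1.42.0, limma 3.58.1 on log2(FPKM + 1), other scalings, no filter, a replicate block, 2 groups only and each library left out. The fit was tested on simulated data. With the 40 genes, each class was represented by the 2 genes of highest WT level and the 2 each of lowest and highest change in the PBL19C3A line, plus genes called higher than WT or called in the comparison of the eds1 and sid2 lines, of the sid2 and PBL19C3A lines or of the eds1 line and WT, and of each related list up to 3 genes with the largest called change. The genes and lists were chosen with earlier results of these data known. Sequences were read from the RefSeq annotation and genome TAIR10.1, whose windows were used for sequence only.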

Additional observations from a re-analysis of the deposited data

How the results depend on the processing

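In the PBL19C3A line against WT, the members called stayed within 1.5 times the 38 reported under every alternative, with 28 to 38 when 1 library was left out. The counts for the sid2 line against WT (35) ran from 1 to 18 without 1 library, those for the eds1 against the PBL19C3A line (34) from 6 to 30, and those for the eds1 against the sid2 line (9) from 0 to 7. With 2 groups only in the fit, the last 2 counts were 14 and 1, and for the eds1 against the sid2 line DESeq2 called 20 and library totals as scaling 15. Leaving out a library leaves 1 in its group, assumed to vary like the other groups. Of class medians, leaving out 1 library gave -0.55 to -0.42 for PSB in the sid2 line against WT, -0.324 to -0.0805 for PSA and -0.277 to -0.0507 for PSB in the eds1 line against WT, -0.210 to -0.0724 for LHCA and -0.262 to -0.0573 for LHCB in the same comparison, 0.0452 to 0.197 for LHCA, 0.111 to 0.267 for PSB and 0.17 to 0.33 for LHCB in the sid2 against the PBL19C3A line, 0.43 to 0.58 for PSA and 0.43 to 0.66 for PSB in the eds1 against the PBL19C3A line, and 0.37 to 0.52 for LHCA, 0.28 to 0.39 for PSA and 0.21 to 0.40 for PSB in the eds1 against the sid2 line. Summed CPM with TMM put the sid2 line at 65.6% of WT for LHCA, 70.0% for PSA and 72.0% for PSB. No result changed sign under any alternative run where it was called. Scaling without the 40 genes and the related lists was chosen after seeing the data. The causes of these changes were not tested.

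The replicate numbers came with no shared batch in the labels, and deviations of same-numbered libraries correlated at 0.144 to 0.371 over the 6 pairs of genotypes, with 2 libraries each. With the replicate block, 39 members were called in the PBL19C3A line against WT, 37 in the sid2 line against WT, 0 in the eds1 line against WT, 0 in the sid2 against the PBL19C3A line, 36 in the eds1 against the PBL19C3A line and 12 in the eds1 against the sid2 line.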
